A study of Mus musculus with 36 samples.

Results

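Alveolar macrophages of bone marrow origin (BM-AΦ) were compared with the monocytes of the same origin, both sorted from the lungs of chimeric mice after 32-weeks of exposure. The 12 libraries were all those labelled as CD45.1 macrophages or monocytes of that time point, out of 36 in the series, and were 6 of BM-AΦ and 6 of CD45.1 monocytes. Each cell type came from 3 libraries of mice that had breathed filtered air (FA) and 3 of mice that had breathed concentrated fine particles (PM2.5). Levels are given as FPKM, in which both the depth of a library and the length of a transcript are divided out. The test took in genes whose mean over the 12 libraries reached 1 FPKM, which left 12887 of 27562.

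The hosts were male C57BL/6J mice carrying CD45.2, the common allele of the leukocyte surface protein CD45. They were irradiated with the chest shielded, treated with busulfan, and given bone marrow of sex-matched B6.SJL-Ptprca Pepcb/BoyJ donors, which carry the CD45.1 allele on nearly the same background. All 4 groups therefore shared the transplant, and a cell that stained for CD45.1 descended from donor marrow. Macrophages were sorted on CD64 with high CD11c and low CD11b. Monocytes were sorted on high CD11b with low CD64, and without Ly6G or MHC class II. The column names number the cell populations 1 and 2, the supplement explains the number for macrophages as CD45.1 and CD45.2, and the monocytes were read the same way. The methods describe 3 mice per group, while the labels tie no library to a mouse, so all errors are the spread between libraries.

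Alveolar macrophages live on the air side of the alveoli, where they clear inhaled particles and surfactant. They depend on GM-CSF from the epithelium and on autocrine TGF-beta, which sustain the nuclear receptor PPAR-gamma and with it the uptake, storage and burning of surfactant lipid. Most descend from fetal precursors and renew in place, but marrow monocytes can enter the niche and take on the same programme. Circulating monocytes come in a classical form, which carries Ly6C and CCR2, and a non-classical form that patrols vessels and depends on the orphan receptor Nr4a1.

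The cell types were far apart. Of the genes tested, 6676 passed the limma threshold (adjusted p under 0.05), which was 51.8% of all genes. BM-AΦ were higher in 3511 of them (27.2%) and lower in 3165 (24.6%). Because most genes passed, the counts of gene groups given next are to be read against these shares and against the median log2 fold change of all genes tested, which was 0.052. Among the higher genes, 1440 differed by a log2 fold change of at least 1 and 86 by at least 4, and among the lower genes 1576 and 71 did. The 6 libraries of BM-AΦ did not overlap the 6 monocyte libraries in 4074 genes (31.6%), which in an exact permutation test of a single gene gives the smallest two-sided p of the design, 0.00216. Scaling each library to the summed FPKM of named genes moved the median of all genes to 0.18 and the share of higher genes among those called from 52.6% to 61.8%, and no called gene changed sign.

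The first principal component carried 36.5% of the variance and put BM-AΦ between 61.7 and 74.9 and the monocytes between -78.9 and -62.4. On the second, with 8.93%, the BM-AΦ libraries lay close together, from -8.5 to 15.7, while the monocyte libraries were spread from -61.4 to 64.5. Over all genes the FPKM added up to 1989065 to 2282105 per BM-AΦ library and 2521607 to 2937763 per monocyte library, and the share of that sum in mitochondrial, ribosomal RNA and predicted genes was 40.1% to 42.4% in BM-AΦ and 48.1% to 51.3% in the monocytes. Both quantities moved with cell type, and their part in the results was not tested. In bulk libraries such as these, fewer cells of a type and less RNA per cell cannot be told apart.

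**Figure D1:**
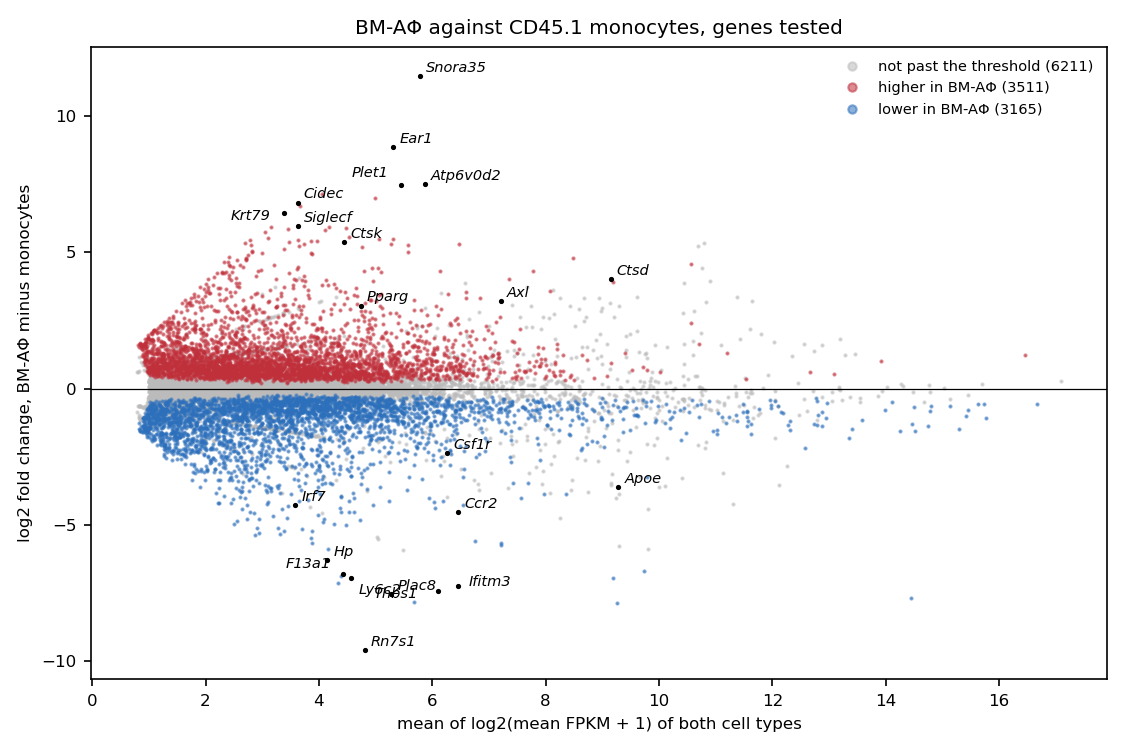
Each point is 1 of the 12887 genes tested, with its level on the horizontal axis (mean of log2(mean FPKM + 1) of both cell types) and the log2 fold change of BM-AΦ over CD45.1 monocytes on the vertical axis. The 3511 genes in red and the 3165 in blue passed the threshold, and black points are named genes, from Ear1 at a log2 fold change of 8.88 to Plac8 at -7.53, together with 2 short RNA genes listed at 0 in all libraries of 1 cell type, Snora35 and Rn7s1.

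Among the transcripts of the gated proteins, those of CD11c and CD11b differed in the direction of the gates. Itgax, which encodes CD11c, was at 66.7 to 83.6 FPKM (median 73.1) in BM-AΦ and 6.60 to 19.2 FPKM (median 13.6) in the monocytes (log2 fold change 2.54 ± 0.19 (SE), adjusted p = 6.86e-07). Itgam (CD11b) was at 1.10 to 6.54 FPKM (median 6.10) in BM-AΦ and 65.6 to 134 FPKM (median 83.7) in the monocytes (log2 fold change -4.12 ± 0.34 (SE), adjusted p = 1.92e-06). Surface proteins that the gates above do not name also differed. Siglecf (Siglec-F, a sialic acid-binding lectin of AΦ and eosinophils) was at 82.3 to 111 FPKM (median 95.4) in BM-AΦ and 0.282 to 0.763 FPKM (median 0.600) in the monocytes, with no overlap (log2 fold change 5.98 ± 0.11 (SE), adjusted p = 1.39e-11). Cd24a, a mucin-like surface protein, was also higher in BM-AΦ, at a log2 fold change of 2.70. Ly6c2, the main Ly6C gene, was at 0.234 to 2.14 FPKM (median 1.18) in BM-AΦ and at 148 to 376 FPKM (median 262) in the monocytes, a wide gap (log2 fold change -6.94 ± 0.32 (SE), adjusted p = 1.89e-08).

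The transcripts of CD45, CD64 and MHC class II were higher in the monocytes or did not pass. Ptprc, the gene of CD45 itself, was lower in BM-AΦ, at 122 to 159 FPKM (median 137) in BM-AΦ and 228 to 392 FPKM (median 286) in the monocytes. Fcgr1, which encodes the CD64 on which macrophages were sorted, was at 16.1 to 24.3 FPKM (median 20.4) in BM-AΦ and 20.2 to 35.5 FPKM (median 26.1) in the monocytes, so that the groups overlapped and the small difference went to the monocytes (log2 fold change -0.41 ± 0.14 (SE), adjusted p = 0.0288). Genes of MHC class II were plentiful in monocytes that had been gated as MHC II-. H2-Aa was at 1107 to 1735 FPKM (median 1377) in BM-AΦ and 1239 to 2620 FPKM (median 2221) in the monocytes. H2-Eb1 was at 341 to 633 FPKM (median 438) in BM-AΦ and 486 to 1183 FPKM (median 793) in the monocytes, both overlapping and both past the threshold on the monocyte side (log2 fold change -0.56 ± 0.20 (SE), adjusted p = 0.0346 and log2 fold change -0.83 ± 0.24 (SE), adjusted p = 0.0124). H2-Ab1, at a log2 fold change of -0.48, did not pass. The calls of H2-Aa and H2-Eb1 were lost with quantile normalization, in a model of all 36 libraries and in FA exposed mice alone, and that of Fcgr1 in FA or in PM2.5 exposed mice alone. Ly6g, the neutrophil protein gated out, was under 1 FPKM and was not tested.

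**Figure D2:**
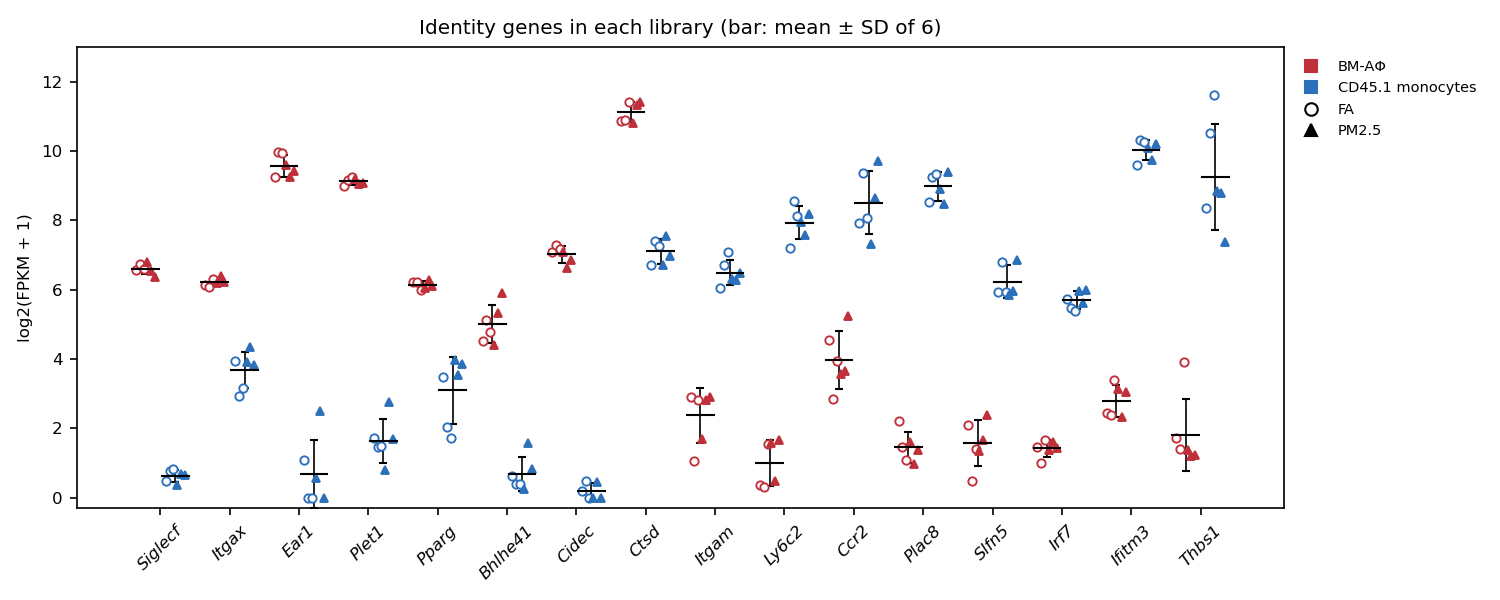
Level of 16 genes in each of the 12 libraries as log2(FPKM + 1), with BM-AΦ in red and CD45.1 monocytes in blue, open circles for FA, filled triangles for PM2.5, and bars for the mean ± SD of 6 libraries. The groups are apart in all 16 genes, from Siglecf (median 95.4 against 0.600 FPKM) to Thbs1 (median 1.63 against 449 FPKM), whose monocyte libraries are the most spread.

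The genes that define alveolar macrophages were high in BM-AΦ and low in the monocytes. Of 33 identity genes, 31 were higher in BM-AΦ and 0 were lower, with a median log2 fold change of 4.57. Ear1, a secreted ribonuclease of the eosinophil-associated family, was at 602 to 1000.3 FPKM (median 729) in BM-AΦ and 0 to 4.67 FPKM (median 0.237) in the monocytes (log2 fold change 8.88 ± 0.40 (SE), adjusted p = 1.88e-08), although reads of its near-identical family members may have been divided between the copies. Plet1, a surface glycoprotein of AΦ, was at 512 to 612 FPKM (median 558) in BM-AΦ and 0.733 to 5.74 FPKM (median 2.01) in the monocytes (log2 fold change 7.48 ± 0.26 (SE), adjusted p = 1.67e-09). Both genes kept to a narrow range in BM-AΦ and were near the floor of every monocyte library. Car4, a carbonic anhydrase held on the membrane, was at 38 to 88.3 (median 53.3) in BM-AΦ against 0 to 0.668 FPKM (median 0.166) in the monocytes. Cbr2, a carbonyl reductase often named with AΦ, and Tmem150b were the list's genes that did not pass, and Cbr2 averaged 3.12 FPKM in BM-AΦ.

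Keratins and other genes best known from epithelium were among the genes named for the size of their difference, while most tested markers of alveolar and airway epithelium were lower. Of these 5 genes, 1 was higher and 3 were lower in BM-AΦ, with a median log2 fold change of -2.34 that turned to 0.037 without the filter on low values. Krt79 and Krt19, both keratins, were at 80.0 to 125 FPKM (median 88.8) and 160.1 to 216 FPKM (median 205) in BM-AΦ, while the monocytes reached no more than 0.581 and 0.832 FPKM. Perp, a membrane protein of desmosomes that p53 induces, was at 113 to 152 (median 126) in BM-AΦ against 0 to 0.947 FPKM (median 0.0851) in the monocytes. Kcnn3, a calcium-activated potassium channel gene among the same 10 largest, was at 61.5 to 78.5 (median 66.6) in BM-AΦ against 0 to 0.381 FPKM (median 0.0899) in the monocytes. Epcam, the higher gene of the list, and the E-cadherin gene Cdh1, which is not on it, had log2 fold changes of 5.13 and 3.53. The defining surfactant gene Sftpc was at 0 to 8.83 (median 1.24) in BM-AΦ against 2.58 to 21.5 FPKM (median 17.7) in the monocytes, lower in BM-AΦ (log2 fold change -2.34 ± 0.56 (SE), adjusted p = 0.00433), and the club cell gene Scgb1a1 did not pass (log2 fold change 0.78 ± 1.17 (SE), adjusted p = 0.597). Sftpa1, Sftpb, Sftpd and Krt8 were under the filter. Of the 10 largest higher genes, Snora35, a small nucleolar RNA, was listed at 0 in all monocyte libraries and between 2087 and 4927 FPKM in BM-AΦ, and no fold is given for it.

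Monocyte markers were lower in BM-AΦ. Of 19 markers of classical monocytes 14 were lower in BM-AΦ (median -5.24), and of 18 markers of non-classical monocytes 15 were lower (median -2.07). Plac8, a small cysteine-rich protein of young myeloid cells, was at 0.949 to 3.62 FPKM (median 1.68) in BM-AΦ and 354 to 676 FPKM (median 545) in the monocytes (log2 fold change -7.53 ± 0.24 (SE), adjusted p = 8.19e-10). Hp, which encodes haptoglobin, was at 0.517 to 1.56 FPKM (median 0.846) in BM-AΦ and 88.4 to 317 FPKM (median 152) in the monocytes (log2 fold change -6.30 ± 0.30 (SE), adjusted p = 2.53e-08). F13a1, the A subunit of coagulation factor XIII, was at 0.131 to 2.39 FPKM (median 0.584) in BM-AΦ and 99.8 to 507 FPKM (median 226) in the monocytes (log2 fold change -6.81 ± 0.38 (SE), adjusted p = 8.76e-08). None of these groups overlapped. Non-classical genes were present beside the classical ones. Adgre4, an adhesion receptor of that subset, was at 0.358 to 2.82 (median 0.986) in BM-AΦ against 46.9 to 112 FPKM (median 72.3) in the monocytes. Nr4a1 was at 201 to 337 (median 222) in BM-AΦ against 582 to 1151 FPKM (median 1062) in the monocytes (log2 fold change -1.95 ± 0.20 (SE), adjusted p = 1.07e-05). Since the gate did not separate the subsets, their proportions in the sort were not measured.

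The 3 genes of the classical list that were higher in BM-AΦ, Chil3, Mgst1 and Lyz2, are genes that AΦ also use. Chil3 is on the AΦ identity list as well. Other lists share members too, such as Atp6v0d2 in the identity and proton pump lists. Chil3, the chitinase-like protein Ym1, was at 4151 to 10184 FPKM (median 6975) in BM-AΦ and 98.3 to 589 FPKM (median 384) in the monocytes (log2 fold change 4.57 ± 0.47 (SE), adjusted p = 1.08e-05). Lysozyme, from Lyz2, was at 9408 to 12109.5 FPKM (median 10018) in BM-AΦ and 5152 to 9066 FPKM (median 7481) in the monocytes, a modest difference (log2 fold change 0.53 ± 0.17 (SE), adjusted p = 0.0208) that was not called in FA or PM2.5 exposed mice alone, without the filter on low values, or without the libraries numbered 2.

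Among 37 transcription factors of the mononuclear phagocyte lineage, 10 were higher and 16 lower in BM-AΦ. Pparg, which encodes the PPAR-gamma that AΦ cannot do without, was at 63.1 to 76.8 FPKM (median 70.5) in BM-AΦ and 2.31 to 14.6 FPKM (median 10.3) in the monocytes (log2 fold change 3.05 ± 0.32 (SE), adjusted p = 1.22e-05). Bhlhe41, a repressor that holds AΦ identity, was at 20.2 to 58.9 FPKM (median 30.0) in BM-AΦ and 0.199 to 2 FPKM (median 0.431) in the monocytes (log2 fold change 4.33 ± 0.27 (SE), adjusted p = 1.87e-07). Tfec, a relative of the lysosomal regulator TFEB, was at 41.6 to 78.4 (median 59.6) in BM-AΦ against 1.01 to 15.5 FPKM (median 3.65) in the monocytes. On the monocyte side stood Runx3 at 1.37 to 5.46 (median 3.36) in BM-AΦ against 53.9 to 181 FPKM (median 79.8) in the monocytes. Smad3 was at 0.306 to 1.36 (median 0.537) in BM-AΦ against 20.5 to 29.2 FPKM (median 24.7) in the monocytes. Irf7, the master factor of type I interferon responses, was at 0.992 to 2.20 (median 1.73) in BM-AΦ against 40.5 to 62.7 FPKM (median 50.3) in the monocytes. Irf5, a factor of inflammatory responses, was lower too, at a log2 fold change of -2.17. The lineage factors Spi1 (PU.1), Cebpb, Irf8 and Klf4 did not pass the threshold, nor did Tfeb.

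Receptors for the growth factors of macrophages differed in both directions. Of 22 receptor genes, 7 were higher and 13 lower in BM-AΦ. Both chains of the TGF-beta receptor were higher, Tgfbr2 at 105 to 151 FPKM (median 128) in BM-AΦ and 32.6 to 63.9 FPKM (median 57.2) in the monocytes (log2 fold change 1.35 ± 0.16 (SE), adjusted p = 2.86e-05). Tgfbr1 was at 92.6 to 139 (median 125) in BM-AΦ against 37.3 to 81 FPKM (median 50.4) in the monocytes (log2 fold change 1.17 ± 0.19 (SE), adjusted p = 3.89e-04). So was Csf2rb2, a beta chain of the IL-3 and GM-CSF receptor family, at 52.9 to 64.2 (median 56.5) in BM-AΦ against 16.1 to 32.9 FPKM (median 21.8) in the monocytes (log2 fold change 1.33 ± 0.16 (SE), adjusted p = 3.44e-05). The receptors of M-CSF and G-CSF went the other way. Csf1r, the M-CSF receptor, was at 25.5 to 37.7 FPKM (median 33.2) in BM-AΦ and 126 to 199.6 FPKM (median 178) in the monocytes (log2 fold change -2.36 ± 0.13 (SE), adjusted p = 8.20e-08). Csf3r, the G-CSF receptor, was at 2.19 to 5.41 (median 4.69) in BM-AΦ against 26.6 to 49.3 FPKM (median 30.9) in the monocytes (log2 fold change -2.75 ± 0.20 (SE), adjusted p = 5.86e-07). Flt3, the receptor of dendritic cell precursors, was at 0.584 to 4.76 (median 1.20) in BM-AΦ against 8.30 to 21.4 FPKM (median 10.4) in the monocytes.

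Most homing and adhesion genes were lower in BM-AΦ. Of 8 chemokine receptors tested, 6 were lower and 1 was higher in BM-AΦ, and Ccr1 did not pass. Ccr2, with which classical monocytes leave the marrow, was at 6.20 to 36.8 FPKM (median 13) in BM-AΦ and 160 to 842 FPKM (median 335) in the monocytes (log2 fold change -4.55 ± 0.48 (SE), adjusted p = 1.18e-05). Cxcr4, the marrow retention receptor, was at 85.3 to 169.9 FPKM (median 105) in BM-AΦ and 312 to 599.9 FPKM (median 509) in the monocytes (log2 fold change -2.03 ± 0.21 (SE), adjusted p = 9.77e-06). Cx3cr1, the fractalkine receptor, ranged widely among the monocytes, at 0.700 to 10.7 FPKM (median 3.59) in BM-AΦ and 13.6 to 245 FPKM (median 95.7) in the monocytes. Its monocyte libraries nonetheless stayed above all of BM-AΦ. Cxcr1 was the receptor higher in BM-AΦ, at 7.04 to 49 (median 21.8) in BM-AΦ against 0 to 0.486 FPKM (median 0.168) in the monocytes. Of the chemokines themselves, 19 were tested, 2 were higher and 6 lower (42.1% past the threshold, against 51.8% of all genes). Ccl6, an abundant AΦ chemokine, was at 1851 to 4775 FPKM (median 3704) in BM-AΦ and 352 to 984 FPKM (median 637) in the monocytes (log2 fold change 2.41 ± 0.28 (SE), adjusted p = 2.87e-05). Ccl9 was at 16.7 to 135 (median 61.1) in BM-AΦ against 209.5 to 652 FPKM (median 333) in the monocytes. Cxcl13, which draws B cells, was at 0 to 3.58 (median 1.22) in BM-AΦ against 8.07 to 33.1 FPKM (median 15.3) in the monocytes. The interferon-induced Cxcl10 was at 0.503 to 4.05 (median 2.71) in BM-AΦ against 6.97 to 14.8 FPKM (median 10.6) in the monocytes. Of 24 integrins, selectins and other adhesion genes, 13 were lower and 5 higher, with Itgb7, which pairs in the gut-homing integrin, at a log2 fold change of -3.95 and the CD11d gene Itgad at 2.47.

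Scavenger and phagocytic receptors did not move as a group. Of 26 tested, 11 were higher and 11 lower, and the median was 0.083. Cd36, Fcgr3, Lrp1 and Trem2 did not pass. Among the higher receptors, Mertk, a kinase receptor for dying cells, was at 62 to 94.1 FPKM (median 65.1) in BM-AΦ and 1.35 to 11 FPKM (median 4.51) in the monocytes (log2 fold change 3.55 ± 0.34 (SE), adjusted p = 6.42e-06). Its relative Axl was at 370 to 496 (median 417) in BM-AΦ against 23.6 to 78.6 FPKM (median 47.9) in the monocytes. Mrc1, the mannose receptor, was at 201 to 295 FPKM (median 255) in BM-AΦ and 16.1 to 38 FPKM (median 18.7) in the monocytes (log2 fold change 3.46 ± 0.21 (SE), adjusted p = 1.47e-07). Olr1, a receptor for oxidized LDL, was at 112 to 158 (median 131) in BM-AΦ against 3.18 to 14.5 FPKM (median 4.66) in the monocytes. Siglec1, the sialoadhesin gene, was at 103 to 119.6 (median 112) in BM-AΦ against 7.95 to 11.1 FPKM (median 9.11) in the monocytes. Among the lower receptors, the C-type lectin gene Cd209a was at 0.838 to 5.14 (median 3.10) in BM-AΦ against 32.6 to 112 FPKM (median 55.2) in the monocytes. The Mincle gene Clec4e was at 14.6 to 24.6 (median 19) in BM-AΦ against 54.3 to 287 FPKM (median 72.7) in the monocytes. The class A scavenger receptor gene Msr1 was at 2.42 to 14.3 (median 6.51) in BM-AΦ against 18.5 to 73.9 FPKM (median 35.4) in the monocytes. Marco, a scavenger receptor for particles that is usual on AΦ, was barely detected in BM-AΦ, at 0.743 to 6.85 (median 1.78) in BM-AΦ against 0 to 0.0878 FPKM (median 0) in the monocytes.

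Genes of lipid handling were mostly higher in BM-AΦ. Of 30 genes of lipid uptake, storage and efflux, 21 were higher and 5 lower (median 1.85). Of 27 genes of fatty acid oxidation, 26 were higher and 0 lower (median 1.08), and of 22 genes of cholesterol synthesis, 17 were higher and 0 lower (median 1.11). Cidec, which lets lipid droplets grow by fusion, was at 97.8 to 156 FPKM (median 136) in BM-AΦ and 0 to 0.411 FPKM (median 0.0737) in the monocytes (log2 fold change 6.83 ± 0.13 (SE), adjusted p = 2.13e-11). Fabp1, a fatty acid carrier better known from liver, was at 25.4 to 51.1 FPKM (median 44.7) in BM-AΦ and listed at 0 in all 6 monocyte libraries. Lipoprotein lipase, from Lpl, was at 193 to 356 (median 243) in BM-AΦ against 3.27 to 14.7 FPKM (median 7.08) in the monocytes. The monoglyceride lipase Mgll was at 33.5 to 50.0 (median 36.8) in BM-AΦ against 0 to 0.725 FPKM (median 0.115) in the monocytes. Abcg1, which exports cholesterol, was at 605 to 710 (median 651) in BM-AΦ against 29.7 to 51.9 FPKM (median 40.0) in the monocytes.

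In the oxidation pathway, the peroxisomal genes had the largest differences. Acaa1b, a thiolase, was at 31.9 to 56.4 FPKM (median 46.3) in BM-AΦ and listed at 0 in all but 1 monocyte library. Ehhadh, the bifunctional enzyme of the same pathway, was at 8.98 to 13.6 FPKM (median 10.6) in BM-AΦ and 0.194 to 0.726 FPKM (median 0.597) in the monocytes (log2 fold change 3.02 ± 0.14 (SE), adjusted p = 1.79e-08). The mitochondrial hydratase Echs1 was the list's gene that did not pass. In cholesterol synthesis, Dhcr7, which makes cholesterol in the last step of one branch, was at 18.5 to 26.4 FPKM (median 24.4) in BM-AΦ and 1.85 to 6.14 FPKM (median 4.81) in the monocytes (log2 fold change 2.35 ± 0.21 (SE), adjusted p = 3.89e-06), with Hsd17b7 at a log2 fold change of 1.81, while Insig1 and Srebf2, both regulators of the pathway, did not pass. Among the 5 lower genes of the lipid list, Apoe, the carrier apolipoprotein, was at 42.5 to 367 FPKM (median 194) in BM-AΦ and 1232 to 2873 FPKM (median 2014) in the monocytes (log2 fold change -3.63 ± 0.47 (SE), adjusted p = 5.90e-05). Pla2g7, a lipoprotein-bound phospholipase, was at 0.694 to 6.50 (median 3.60) in BM-AΦ against 71.5 to 170 FPKM (median 80.8) in the monocytes. Apoc2, the activator of lipoprotein lipase, is not on the list but was among the 10 largest lower genes, at 0 to 2.46 FPKM (median 1.02) in BM-AΦ and 81.2 to 130.2 FPKM (median 99.6) in the monocytes (log2 fold change -5.69 ± 0.25 (SE), adjusted p = 1.24e-08).

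The promoter of Fabp1 is shown because it was the gene of the lipid list that all monocyte libraries listed at 0. PPAR-gamma binds with RXR to paired half-sites, and AGGNCAAAG was searched as the letters of their core on both strands. The sequence covers the 250 bases before the RefSeq start of the gene (GRCm38.p6, chr6:71199629-71199878, plus strand), and the capitals mark the match, at -202 counted back from the start, which lies on the reverse strand.
Fabp1: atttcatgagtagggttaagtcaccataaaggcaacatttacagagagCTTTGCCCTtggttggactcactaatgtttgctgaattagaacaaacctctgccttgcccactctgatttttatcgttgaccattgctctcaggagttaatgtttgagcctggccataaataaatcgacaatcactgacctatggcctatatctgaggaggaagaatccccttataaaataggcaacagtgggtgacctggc
These letters stood in 2.08% of all 27025 promoters of the table and in 1.92% of those of genes tested. A match in 1 promoter is only a description. Of the 57 tested members of the lipid and fatty acid oxidation lists 41 had an entry (71.9%), and 2 of these held it. With under 80% of members having an entry, the check is void for these lists.

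**Figure D3:**
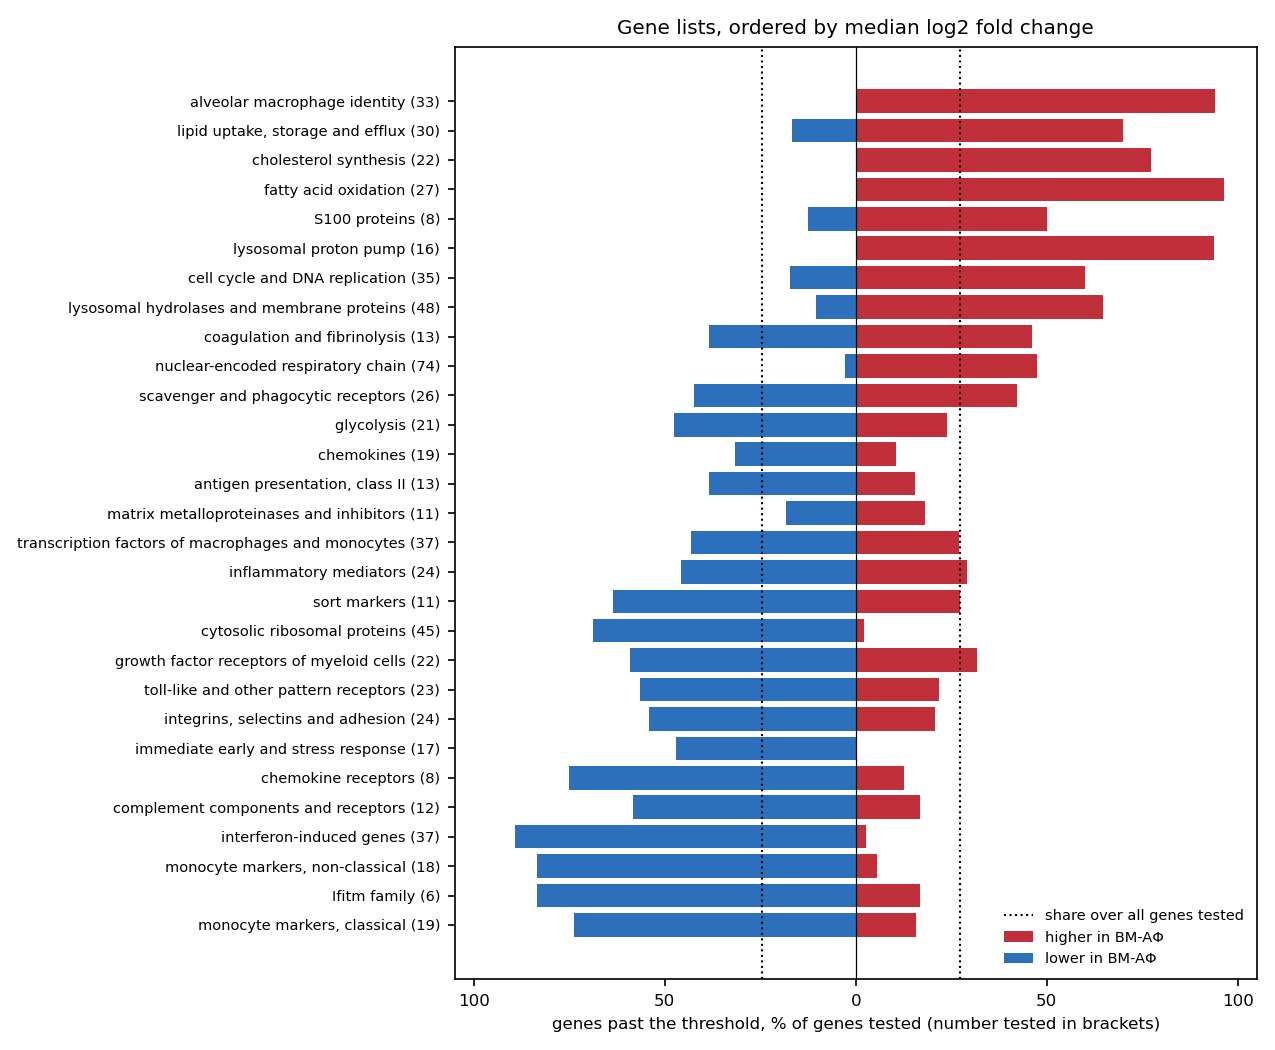
Share of tested genes past the threshold in each gene list, with genes higher in BM-AΦ to the right in red and genes lower to the left in blue, in percent of the number tested given in brackets, and with lists ordered by median log2 fold change. Dotted lines mark the shares over all genes tested, 27.2% higher and 24.6% lower. Identity, lipid and proton pump lists extend far to the right of the line (31 of 33, 26 of 27 and 15 of 16 higher), and interferon-induced genes and monocyte markers far to the left.

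Lysosomes receive what the phagocyte has eaten, and their enzymes work only while a proton pump keeps the lumen acid. Of 16 subunits of the pump, 15 were higher in BM-AΦ and 0 lower (median 0.93), and of 48 hydrolases and membrane proteins, 31 were higher and 5 lower (median 0.72). Atp6v0d2, the d2 subunit of macrophages and osteoclasts, was far ahead of the other subunits, at 459.8 to 765 FPKM (median 721) in BM-AΦ and 0.825 to 16.5 FPKM (median 1.82) in the monocytes (log2 fold change 7.51 ± 0.46 (SE), adjusted p = 1.81e-07). The a1 and C1 subunits, from Atp6v0a1 and Atp6v1c1, differed less, at a log2 fold change of 1.52 and 1.40. Cathepsin D, from Ctsd, was among the most abundant proteases, at 1799.8 to 2737 FPKM (median 2237) in BM-AΦ and 103 to 187 FPKM (median 139) in the monocytes (log2 fold change 4.02 ± 0.20 (SE), adjusted p = 3.16e-08). Cathepsin K, from Ctsk, a collagenase of osteoclasts, was at 59.7 to 223 FPKM (median 126) in BM-AΦ and 0.836 to 8.78 FPKM (median 1.29) in the monocytes (log2 fold change 5.37 ± 0.40 (SE), adjusted p = 8.09e-07). In 1 monocyte library, PM2.5 replicate 1, both Atp6v0d2 and Ctsk were above the other monocyte libraries, at 16.5 and 8.78 FPKM.

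Some hydrolases belonged to the monocytes. Ctse, the intracellular aspartic protease cathepsin E, was at 2.91 to 5 FPKM (median 3.94) in BM-AΦ and 39.4 to 61.5 FPKM (median 48.9) in the monocytes (log2 fold change -3.36 ± 0.14 (SE), adjusted p = 1.08e-08). Sgsh, the sulfamidase of heparan sulfate breakdown, was at 0.825 to 1.20 FPKM (median 1.01) in BM-AΦ and 9.25 to 14.5 FPKM (median 10.5) in the monocytes (log2 fold change -2.59 ± 0.11 (SE), adjusted p = 1.01e-08). Lamp1 and Lamp2, which coat the lysosomal membrane, did not pass, nor did cathepsin B from Ctsb.

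The promoters of Ctsd and of Naglu, an enzyme of heparan sulfate breakdown that averaged 30.1 FPKM in BM-AΦ and 7.98 in the monocytes, are shown because both hold CACGTG. This E-box is the core of the element through which TFEB and its relatives drive lysosomal genes. It was searched in the 250 bases before the RefSeq start (GRCm38.p6), for Ctsd chr7:142387828-142388077, minus strand and for Naglu chr11:101069844-101070093, plus strand, and it reads the same on both strands. Capitals mark it, at -245 and -98 in Ctsd and at -73 in Naglu.
Ctsd: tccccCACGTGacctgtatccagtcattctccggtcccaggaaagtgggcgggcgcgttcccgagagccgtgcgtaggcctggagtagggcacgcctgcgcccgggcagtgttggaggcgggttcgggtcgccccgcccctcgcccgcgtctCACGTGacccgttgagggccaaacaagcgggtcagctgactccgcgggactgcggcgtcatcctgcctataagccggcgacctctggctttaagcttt
Naglu: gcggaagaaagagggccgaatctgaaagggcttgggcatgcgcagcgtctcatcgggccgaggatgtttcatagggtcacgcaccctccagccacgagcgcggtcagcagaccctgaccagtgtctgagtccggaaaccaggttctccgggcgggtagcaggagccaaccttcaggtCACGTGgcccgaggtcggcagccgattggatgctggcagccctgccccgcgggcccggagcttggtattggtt
The hexamer stood in 6.86% of all 27025 promoters with an entry and in 10.4% of the 7933 of genes tested. Of the 64 tested members of both lists 49 had an entry (76.6%), and 15 of these held it. Since under 80% of members had an entry, the check is void for the lists.

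Interferon-induced genes were lower in BM-AΦ almost throughout. Of 37 tested, 33 were lower and 1 higher (median -1.68), and 29 of the lower ones had no overlap, a pattern that 15.2% of all genes tested showed. Ifi27l2a, a mitochondrial interferon-induced protein, was at 8.67 to 20.5 FPKM (median 14.6) in BM-AΦ and 208 to 338 FPKM (median 279) in the monocytes (log2 fold change -4.18 ± 0.22 (SE), adjusted p = 6.21e-08). Slfn5, a member of the Schlafen family, was at 0.407 to 4.26 FPKM (median 1.93) in BM-AΦ and 56.5 to 116 FPKM (median 60.7) in the monocytes (log2 fold change -4.66 ± 0.31 (SE), adjusted p = 3.59e-07). Gbp7, a guanylate-binding protein, was the member higher in BM-AΦ, at 9.18 to 12.2 (median 10.2) in BM-AΦ against 3.66 to 8.83 FPKM (median 6.56) in the monocytes (log2 fold change 0.63 ± 0.16 (SE), adjusted p = 0.00651). Ddx58 and Ifih1, the RNA sensors RIG-I and MDA5, and Slfn2 did not pass. The median in FA exposed mice alone was -1.47 and in PM2.5 exposed mice alone -1.79.

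The Ifitm family, whose small membrane proteins block the entry of enveloped viruses, was also mostly lower. Of 6 members, 5 were lower in BM-AΦ and 1 was higher, none with overlap. Ifitm3 was at 4.01 to 9.43 FPKM (median 5.91) in BM-AΦ and 769.7 to 1269 FPKM (median 1128) in the monocytes (log2 fold change -7.24 ± 0.22 (SE), adjusted p = 7.40e-10). Ifitm6, a myeloid member, was at 0 to 1.55 FPKM (median 0.904) in BM-AΦ and 104 to 367 FPKM (median 223) in the monocytes (log2 fold change -6.90 ± 0.29 (SE), adjusted p = 1.01e-08). Ifitm1 was at 0 to 2.15 (median 0.330) in BM-AΦ against 16 to 44.9 FPKM (median 27.1) in the monocytes. Ifitm2 averaged 45.3 FPKM in BM-AΦ and 766 in the monocytes. Ifitm10, a divergent member, was the exception, at 4.32 to 17 FPKM (median 9.45) in BM-AΦ and 0 to 0.402 FPKM (median 0.156) in the monocytes (log2 fold change 3.17 ± 0.28 (SE), adjusted p = 2.73e-06).

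Promoters of 1 gene from each of these lists are shown, since both held GAAANNGAA, the core of the element bound by interferon-activated factors (ISGF3 and IRFs). The 250 bases before the RefSeq start (GRCm38.p6) are given for Slfn5 (chr11:82951852-82952101, plus strand) and Ifitm2 (chr7:140955962-140956211, minus strand), with matches on either strand in capitals, at -155 and -132 in Slfn5 and at -46 in Ifitm2.
Slfn5: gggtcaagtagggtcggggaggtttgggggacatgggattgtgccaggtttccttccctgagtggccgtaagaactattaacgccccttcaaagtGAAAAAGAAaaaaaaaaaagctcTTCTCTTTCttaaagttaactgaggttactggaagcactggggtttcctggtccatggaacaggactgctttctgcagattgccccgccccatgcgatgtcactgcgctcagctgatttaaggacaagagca
Ifitm2: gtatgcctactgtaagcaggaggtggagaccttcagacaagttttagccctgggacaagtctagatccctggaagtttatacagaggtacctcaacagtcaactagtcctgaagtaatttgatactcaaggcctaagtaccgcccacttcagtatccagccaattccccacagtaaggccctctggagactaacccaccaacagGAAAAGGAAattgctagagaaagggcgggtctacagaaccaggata
The element stood in 8.18% of all promoters with an entry and in 7.82% of those of genes tested. Of the 43 tested members of both lists 34 had an entry (79.1%), and 19 of these held it, so the check is void here too.

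Innate sensors differed in both directions. Of 23 pattern receptors and adaptors, 5 were higher and 13 lower in BM-AΦ (median -0.67). Tlr4, the receptor of endotoxin, was at 66.3 to 83.3 FPKM (median 75.1) in BM-AΦ and 8.59 to 34.6 FPKM (median 17.5) in the monocytes (log2 fold change 2.06 ± 0.26 (SE), adjusted p = 5.57e-05). Tlr2, for bacterial lipoproteins, was at 343 to 416 FPKM (median 355) in BM-AΦ and 129 to 220.3 FPKM (median 171) in the monocytes (log2 fold change 1.09 ± 0.15 (SE), adjusted p = 1.19e-04). Tlr9, for CpG DNA, went the other way, at 0.638 to 6.20 FPKM (median 2.17) in BM-AΦ and 41.8 to 79.3 FPKM (median 51.1) in the monocytes (log2 fold change -4.10 ± 0.32 (SE), adjusted p = 1.25e-06), as did Tlr1, a partner of Tlr2, at 0.0583 to 0.657 (median 0.370) in BM-AΦ against 7.17 to 14.1 FPKM (median 10.4) in the monocytes. The muramyl peptide sensor Nod2 was at 1.79 to 4.33 (median 3.16) in BM-AΦ against 19.6 to 30.0 FPKM (median 21) in the monocytes.

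Inflammatory mediators were likewise mixed, with 7 of 24 higher and 11 lower in BM-AΦ. The leukotriene enzymes were higher. Ltc4s, which makes leukotriene C4, was at 124 to 206 FPKM (median 149.6) in BM-AΦ and 0.765 to 4 FPKM (median 2.64) in the monocytes (log2 fold change 5.57 ± 0.27 (SE), adjusted p = 2.72e-08). Alox5, the 5-lipoxygenase, was at 63.8 to 108 (median 95.1) in BM-AΦ against 3.05 to 13.2 FPKM (median 11.3) in the monocytes (log2 fold change 3.26 ± 0.31 (SE), adjusted p = 5.74e-06). Il18 was also higher, at 25.4 to 44.8 (median 37.1) in BM-AΦ against 0.988 to 5.21 FPKM (median 3.26) in the monocytes. In the monocytes the prostaglandin enzyme Ptgs2 (COX-2) was at 37.1 to 356 FPKM (median 87.9) against 0.700 to 9.86 FPKM (median 3.16) in BM-AΦ (log2 fold change -4.52 ± 0.57 (SE), adjusted p = 5.09e-05). Interleukin 1 beta, from Il1b, was at 17.2 to 147 FPKM (median 58) in BM-AΦ and 449.5 to 2725 FPKM (median 668) in the monocytes (log2 fold change -3.87 ± 0.53 (SE), adjusted p = 9.95e-05). Thbs1, the matrix protein thrombospondin 1, was at 1.29 to 14 FPKM (median 1.63) in BM-AΦ and 165 to 3137 FPKM (median 449) in the monocytes (log2 fold change -7.44 ± 0.58 (SE), adjusted p = 1.09e-06). The highest values of both came from 1 monocyte library, FA replicate 2, with 2725 FPKM of Il1b and 3137 of Thbs1. No inflammatory gene named here lost its call when any single library was left out. Of 17 immediate early genes, 8 were lower and 0 higher in BM-AΦ (47.1% past the threshold, against 51.8% of all genes). The lower ones included Zfp36, which destabilizes cytokine mRNA, at a log2 fold change of -1.25, Btg2 at -1.29 and Junb at -1.12.

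Antigen presentation and complement showed partial differences. Of 13 class II genes, 5 were lower and 2 higher in BM-AΦ, and 6 did not pass. The share past the threshold, 53.8%, was near the 51.8% of all genes tested. Only 1 of the 13 had no overlap, against 31.6% of all genes. The co-stimulator Cd86 was at 8.64 to 16.8 FPKM (median 12.4) in BM-AΦ and 23.5 to 65.1 FPKM (median 42.1) in the monocytes (log2 fold change -1.68 ± 0.23 (SE), adjusted p = 8.74e-05). Cd74, the invariant chain, was very abundant in both, at 2362 to 3807 FPKM (median 3052) in BM-AΦ and 1976 to 4358 FPKM (median 3388) in the monocytes, and its sign was not stable, at a log2 fold change of -0.15 overall and at 0.38 after quantile normalization. Of 12 complement genes, 7 were lower and 2 higher. C5ar1, the receptor of the fragment C5a, was at 208 to 301 FPKM (median 237) in BM-AΦ and 50.9 to 139 FPKM (median 64.5) in the monocytes (log2 fold change 1.72 ± 0.19 (SE), adjusted p = 1.64e-05). The chains of C1q, which macrophages secrete, were lower in BM-AΦ, C1qb at 11.8 to 96.2 FPKM (median 46) in BM-AΦ and 103 to 324 FPKM (median 155) in the monocytes (log2 fold change -2.09 ± 0.48 (SE), adjusted p = 0.00329). C1qa was at 15.5 to 126 (median 66.8) in BM-AΦ against 118 to 418 FPKM (median 164) in the monocytes (log2 fold change -1.81 ± 0.50 (SE), adjusted p = 0.01). The call of C1qa was lost in FA exposed mice alone and in a model of all 36 libraries.

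Coagulation genes were divided between the cells. F7, the factor VII that starts clotting with tissue factor, was at 71.5 to 86.5 FPKM (median 79.7) in BM-AΦ and 0 to 1.91 FPKM (median 0.855) in the monocytes (log2 fold change 5.47 ± 0.20 (SE), adjusted p = 3.43e-09). It was on the BM-AΦ side, as was Anxa2, a surface receptor for plasminogen, at a log2 fold change of 1.78. F13a1 and Thbs1 were on the monocyte side, as was Serpinb10, at 0 to 0.723 (median 1.34e-05) in BM-AΦ against 15.6 to 115 FPKM (median 38) in the monocytes. Of the S100 calcium-binding proteins, 4 of 8 were higher, with log2 fold changes of 3.24 for S100a1, 1.48 for S100a10 and 1.46 for S100a11, and S100a4 was lower, at 46.5 to 98.7 FPKM (median 60.3) in BM-AΦ and 255 to 529 FPKM (median 395) in the monocytes (log2 fold change -2.53 ± 0.23 (SE), adjusted p = 4.29e-06). S100a8, a neutrophil and inflammatory monocyte alarmin, was low in both, at 0.998 to 5.13 (median 3.27) in BM-AΦ against 0 to 4.90 FPKM (median 1.30) in the monocytes, and did not pass. Of 11 metalloproteinases and inhibitors, 2 were higher and 2 lower (36.4% past the threshold, against 51.8% of all genes). Mmp9 was at 0 to 0.715 (median 0.314) in BM-AΦ against 1.13 to 5.05 FPKM (median 2.62) in the monocytes.

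Of 35 cell cycle genes, 21 were higher and 6 lower in BM-AΦ (median 0.78). The paper used BrdU uptake to measure proliferation and reports that labelled BM-AΦ were negligible in either exposure. Whether the transcript differences go with cell division was not tested. Ccnd2, the D-type cyclin that growth factors induce, was at 70.8 to 150.1 FPKM (median 105) in BM-AΦ and 3.10 to 16 FPKM (median 9.55) in the monocytes (log2 fold change 3.43 ± 0.35 (SE), adjusted p = 1.08e-05). Its partner kinase gene Cdk6 was at 31 to 38 FPKM (median 33.6) in BM-AΦ and 5.26 to 10.6 FPKM (median 7.70) in the monocytes (log2 fold change 2.07 ± 0.14 (SE), adjusted p = 4.94e-07). Ccna2, a cyclin of S and G2 phase, was low in both, at 5.22 to 12.4 (median 6.94) in BM-AΦ against 0.421 to 4.39 FPKM (median 1.14) in the monocytes. Inhibitors of the cycle were on the monocyte side. Cdkn1b (p27) was at 22.1 to 35.7 (median 32.3) in BM-AΦ against 74.5 to 138 FPKM (median 91.1) in the monocytes. Cdkn2d (p19) was at 4.62 to 9.70 (median 6.20) in BM-AΦ against 18.5 to 79.5 FPKM (median 40.7) in the monocytes. The cyclin Ccnd3 was lower in BM-AΦ too, at a log2 fold change of -1.26. Pcna, Mcm4, Mcm5 and both Aurora kinases did not pass.

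Genes of protein synthesis and of the respiratory chain had small median differences, and glycolysis genes ranged more widely. Of 45 cytosolic ribosomal protein genes, 31 were lower and 1 higher in BM-AΦ, with a median of -0.59. Rps9 was at 222 to 323 FPKM (median 273) in BM-AΦ and 478 to 695 FPKM (median 612) in the monocytes (log2 fold change -1.08 ± 0.13 (SE), adjusted p = 2.64e-05), with Rplp0 at a log2 fold change of -0.88 and Rpl19 at -0.90. Reads of processed pseudogenes can be assigned to ribosomal protein genes, which makes single values uncertain. Of 74 nuclear-encoded genes of the respiratory chain, 35 were higher, 2 were lower and 37 did not pass (median 0.43). The share past the threshold, 50%, was near the 51.8% of all genes tested. The higher genes were led by Atp5g3, a ring subunit of ATP synthase, at 84.2 to 117 FPKM (median 101) in BM-AΦ and 33.3 to 53.8 FPKM (median 40.2) in the monocytes (log2 fold change 1.26 ± 0.12 (SE), adjusted p = 4.83e-06). Rescaling to named genes gave medians of -0.43 and 0.57, with the same signs. Glycolysis was split, with 5 of 21 higher and 10 lower, at log2 fold changes from -2.33 to 2.91. The aldolases were higher in BM-AΦ. Aldoa was at 358 to 438 (median 383) in BM-AΦ against 119 to 186 FPKM (median 130.2) in the monocytes. Aldoc was at 8.79 to 17.1 (median 13.4) in BM-AΦ against 0.301 to 2.14 FPKM (median 0.888) in the monocytes. In contrast, the lactate exporter Slc16a3, at 12.5 to 19.4 (median 14.8) in BM-AΦ against 65 to 150.3 FPKM (median 70.7) in the monocytes, the glucose transporter Slc2a3, at a log2 fold change of -1.28, and Ldhb, at -1.80, were higher in the monocytes.

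Markers of other lung cells were summed to see what else the sorts held. Interstitial macrophages, the macrophages of the lung's connective tissue, share the monocyte gate's high CD11b, and the FPKM of their 14 markers summed to 363 to 971 in BM-AΦ and 1938 to 3881 in the monocytes. Of 13 of these tested, 9 were lower and 1 was higher in BM-AΦ. Apoe, C1qa, C1qb and Cx3cr1 named above are among the lower members, and Mrc1 is the higher one. Ccl12, Lyve1 and Pf4 did not pass, and Folr2 was under the filter. Much of the monocyte sum was Apoe, with a median of 2014 FPKM against a median sum of 3162 FPKM. Dendritic cell markers summed to 155 to 246 and 104 to 277 FPKM, neutrophil markers to 83.7 to 145 and 102 to 304, and B cell markers to 35.1 to 59.4 and 18.1 to 77.5. No T cell, eosinophil or mast cell marker reached the filter. The B cell gene Cd22 was higher in BM-AΦ, at 32.9 to 41.2 (median 35) in BM-AΦ against 0.359 to 2.29 FPKM (median 1.44) in the monocytes, while Ighm was at 0.398 to 15 (median 5.11) in BM-AΦ against 15 to 68.8 FPKM (median 33.6) in the monocytes and Cd79a and Ms4a1, which define B cells, were under the filter.

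Red cell markers moved with the replicate number. They summed to 10.7 to 56.7 FPKM in BM-AΦ and 6.95 to 86 in the monocytes, and the highest library of each group was the one numbered 2. Hbb-bs, a beta globin, was at 0 to 27.6 (median 0.599) in BM-AΦ against 0.606 to 39.7 FPKM (median 2.04) in the monocytes. Without the 4 libraries numbered 2, 5488 genes passed the threshold between the cell types. Epithelial sums, which Epcam led in BM-AΦ and Hopx and Napsa led in the monocytes, were 65.7 to 199 and 79.1 to 154 FPKM, endothelial sums 17.5 to 46.2 and 15.6 to 37.6, and fibroblast sums 0.688 to 4 and 2.04 to 15.8. How much of any difference these cells carried was not tested.

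**Figure D4:**
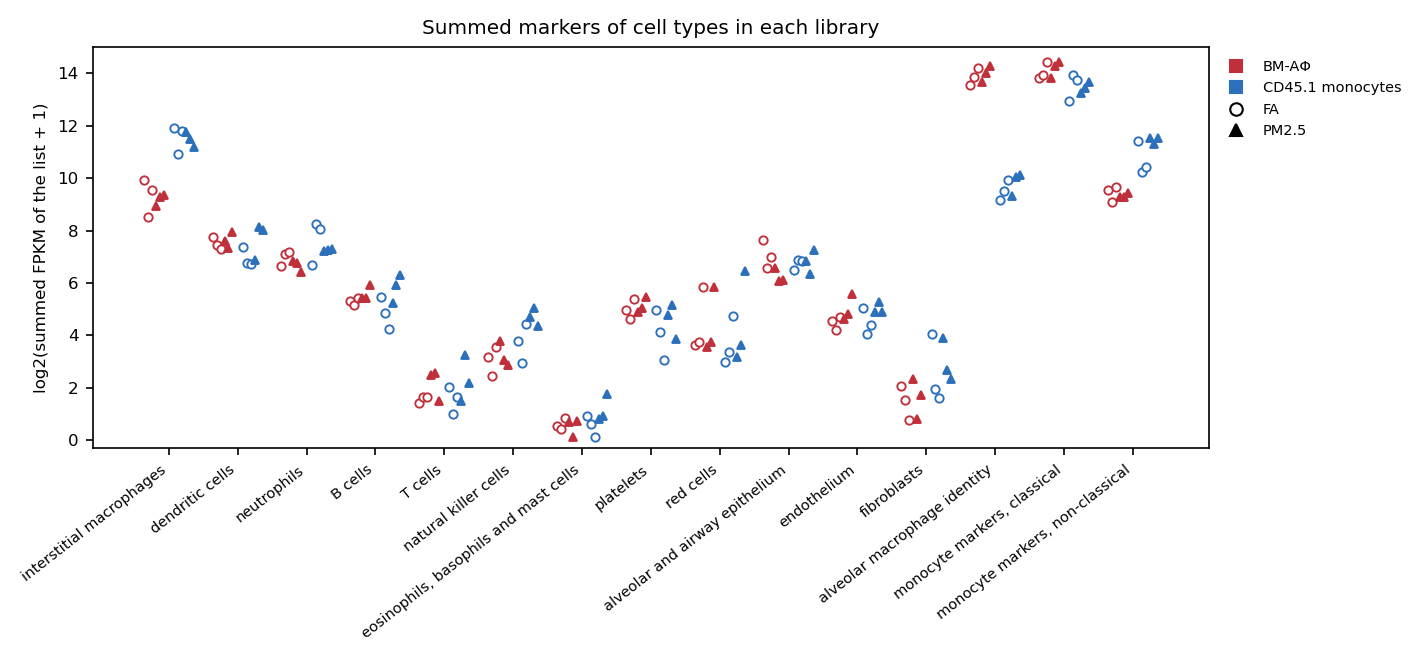
Summed FPKM of cell type marker lists in each library, as log2(sum + 1), with BM-AΦ in red, CD45.1 monocytes in blue, open circles for FA and filled triangles for PM2.5. The AΦ identity and interstitial macrophage sums are apart between the cell types, the latter at 363 to 971 against 1938 to 3881 FPKM. Apoe, on the interstitial list, alone has a median of 2014 FPKM in the monocytes. Lymphocyte, granulocyte and stromal sums overlap or are low in both. Chil3 is on both the AΦ identity and the classical monocyte list. The classical monocyte list, which holds the abundant Lyz2 and Chil3, sums to more in BM-AΦ. Its sums are 14309 to 22220 (median 17542) against 7905 to 15660 FPKM (median 12042).

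Whether the cell type difference depended on the air breathed was asked with the interaction of cell type and exposure. By limma, 4 genes (0.031%) passed, against 438 at an unadjusted p under 0.05. They were Gm26917, Gm24251, Snord95 and Cdk8, and each had a group whose 3 libraries were all listed at 0. When the 703 genes listed at 0 in a whole group were left out, 0 genes were called and 399 lay under 0.05 before adjustment. Of the 6676 genes called between the cell types, 6671 had the same direction in FA and in PM2.5 exposed mice. Since they were called on both exposures together, this count was nearly given and does not bear on the question. The 2860 genes that were called in each exposure alone all had the same direction in both. Single genes can be set side by side, with log2 fold changes of 9.36 in FA and 8.40 in PM2.5 exposed mice for Ear1, 3.73 and 2.36 for Pparg, -7.22 and -6.66 for Ly6c2, and -4.68 and -4.41 for Ccr2. The list of non-classical monocyte markers had a median of -1.50 in FA and -2.98 in PM2.5 exposed mice. Its summed FPKM in the monocytes were 2720, 1204 and 1370 in FA and 2986, 2527 and 2976 in PM2.5 libraries, so the groups overlapped, and none of its genes passed the interaction. With 3 libraries per group, the number called was 3810 in FA and 4295 in PM2.5 exposed mice.

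The same comparison in cells of the hosts, TR-AΦ (tissue-resident AΦ, CD45.2) against CD45.2 monocytes of 32-weeks, used 12 other libraries, so the difference between both differences could be tested directly. Of 13174 genes, 153 passed (1.16%), with 131 where the log2 fold change of the CD45.1 pair was above that of the CD45.2 pair (0.994%) and 22 where it was below (0.167%). At an unadjusted p under 0.05 there were 1351. Of the 131 genes above, 124 had a lower mean in CD45.1 than in CD45.2 monocytes, and 108 a higher mean in BM-AΦ than in TR-AΦ. Since the genes were picked on this difference, both counts were partly given. Without the libraries numbered 2, with fewer samples in the fit, 20 genes passed, 11 above and 9 below. Of these 20, 13 were among the 153, so the excess of genes above was not seen there. Of 33 AΦ identity genes 6 passed, and of 48 lysosomal hydrolases and membrane proteins 2 did. None of 19 classical and 18 non-classical monocyte markers, 36 interferon-induced genes and 27 fatty acid oxidation genes passed, although a missed threshold does not show that they were alike. Side by side, the medians in the CD45.1 and CD45.2 pairs were -5.24 and -5.04 for classical markers, -1.72 and -1.71 for interferon-induced genes, 1.08 and 1.16 for fatty acid oxidation, and 4.57 and 3.93 for AΦ identity. The summed AΦ identity genes overlapped between BM-AΦ and TR-AΦ, with medians of 15616 and 15136 FPKM. In CD45.1 and CD45.2 monocytes the sums overlapped too, with medians of 851 and 1083 FPKM.

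Markers of interstitial macrophages were among the genes that differed between origins. Of 14 markers, 9 passed, all with the CD45.1 difference above the CD45.2 difference. Cd163, a haemoglobin scavenger receptor, was at 2.60 to 5.45 (median 4.02) FPKM in CD45.1 monocytes and at 29.3 to 130.3 (median 56.4) FPKM in CD45.2 monocytes, without overlap. It was at 0.169 to 1.63 (median 0.315) FPKM in BM-AΦ and 0.457 to 2.91 (median 0.947) FPKM in TR-AΦ (difference 3.02 ± 0.44 (SE), adjusted p = 0.00177). Stab1, an endocytic scavenger receptor, showed the same, at 1.83 to 6.22 (median 2.69) and 17.2 to 101 (median 39.9) FPKM in the monocytes (difference 3.30 ± 0.51 (SE), adjusted p = 0.00214), as did the folate receptor gene Folr2, with medians of 0.904 and 14.9 FPKM. Pf4, a chemokine of platelets and some macrophages, was at 6.55 to 31.5 (median 19.2) and 73 to 288 (median 108) FPKM in the monocytes and at 10.5 to 29.2 (median 14.7) FPKM in BM-AΦ and 1.04 to 15.6 (median 3.92) FPKM in TR-AΦ (difference 4.49 ± 0.68 (SE), adjusted p = 0.0019). For C1qa, both sides of the comparison contributed, with 118 to 418 (median 164) and 314 to 1206 (median 579) FPKM in CD45.1 and CD45.2 monocytes and 15.5 to 126 (median 66.8) and 8 to 24.1 (median 11.7) FPKM in BM-AΦ and TR-AΦ (difference 3.66 ± 0.68 (SE), adjusted p = 0.00898). The summed markers of the list were 1938 to 3881 FPKM in CD45.1 and 3717 to 9747 FPKM in CD45.2 monocytes, ranges that overlapped only slightly, and the share of such cells in either sort was not measured.

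In other genes that passed the test between origins, the macrophages had different levels. Marco, which lies on chromosome 1 within 20 Mb of Ptprc, was at 0.743 to 6.85 (median 1.78) FPKM in BM-AΦ and 23.8 to 77.8 (median 39.9) FPKM in TR-AΦ (difference -2.66 ± 0.46 (SE), adjusted p = 0.0054). Sod3, the extracellular superoxide dismutase, was at 4.98 to 20.7 (median 10.9) FPKM in BM-AΦ and 0.125 to 1.91 (median 1.04) FPKM in TR-AΦ (difference 2.86 ± 0.43 (SE), adjusted p = 0.0019), and Plbd1, a phospholipase B-like lysosomal protein of monocytes, was at 5.27 to 29.7 (median 13.1) FPKM in BM-AΦ, which was above TR-AΦ at 0.321 to 1.49 (median 0.566) FPKM and far under both monocytes (difference 2.73 ± 0.41 (SE), adjusted p = 0.00195). For Ear1, the macrophages had similar ranges and the monocytes did not, at 0 to 4.67 (median 0.237) FPKM with CD45.1 and 14.3 to 80.1 (median 20.1) FPKM with CD45.2 (difference 3.59 ± 0.58 (SE), adjusted p = 0.00342). Itgam and Ccr2 had medians of 6.10 and 13 FPKM in BM-AΦ and 0.639 and 3.11 FPKM in TR-AΦ. The Ccr2 ranges, 6.20 to 36.8 and 2.09 to 6.01 FPKM, did not overlap, while those of Itgam did. In the limma test of the difference between both AΦ-monocyte differences they did not pass (adjusted p = 0.128 and 0.436). BM-AΦ and TR-AΦ were not tested against each other alone.

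Part of the difference lay on the chromosome that marks the donors. Ptprc is at chr1:138062861-138175708 (GRCm38), and 12 of 191 tested genes within 20 Mb of it, Marco among them, passed (6.28%), against 1.16% of all genes, and 17 of 936 on the whole chromosome did (1.82%). The donor strain carries SJL DNA around this gene. Chil1, a chitinase-like protein at chr1:134182176-134190181, was at 25.1 to 63.2 (median 43.6) FPKM in CD45.1 and 0 to 0.414 (median 0.183) FPKM in CD45.2 monocytes (difference -4.46 ± 0.41 (SE), adjusted p = 7.32e-06). Ctse, at chr1:131638306-131675505, was at 39.4 to 61.5 (median 48.9) FPKM in CD45.1 and 1.46 to 3.53 (median 2.18) FPKM in CD45.2 monocytes, and at 2.91 to 5 (median 3.94) FPKM in BM-AΦ and 0 to 0.545 (median 0.0723) FPKM in TR-AΦ. Ppfia4, a liprin at chr1:134296783-134332928, had medians of 0.128 and 6.64 FPKM in CD45.1 and CD45.2 monocytes and of 0.0525 and 0.836 FPKM in BM-AΦ and TR-AΦ. For Ctse and Ppfia4, within each cell type, the libraries of population 1 did not overlap those of population 2. This bears on the reading of monocytes 1 as CD45.1. Since Ctse differed in both cell types, its test of the difference (-1.84 ± 0.22 (SE), adjusted p = 2.91e-04) depended on the pseudocount and was 0.0034 with 0.1 in place of 1. Whether genotype at these loci, rather than marrow origin, sets these values was not tested.

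**Figure D5:**
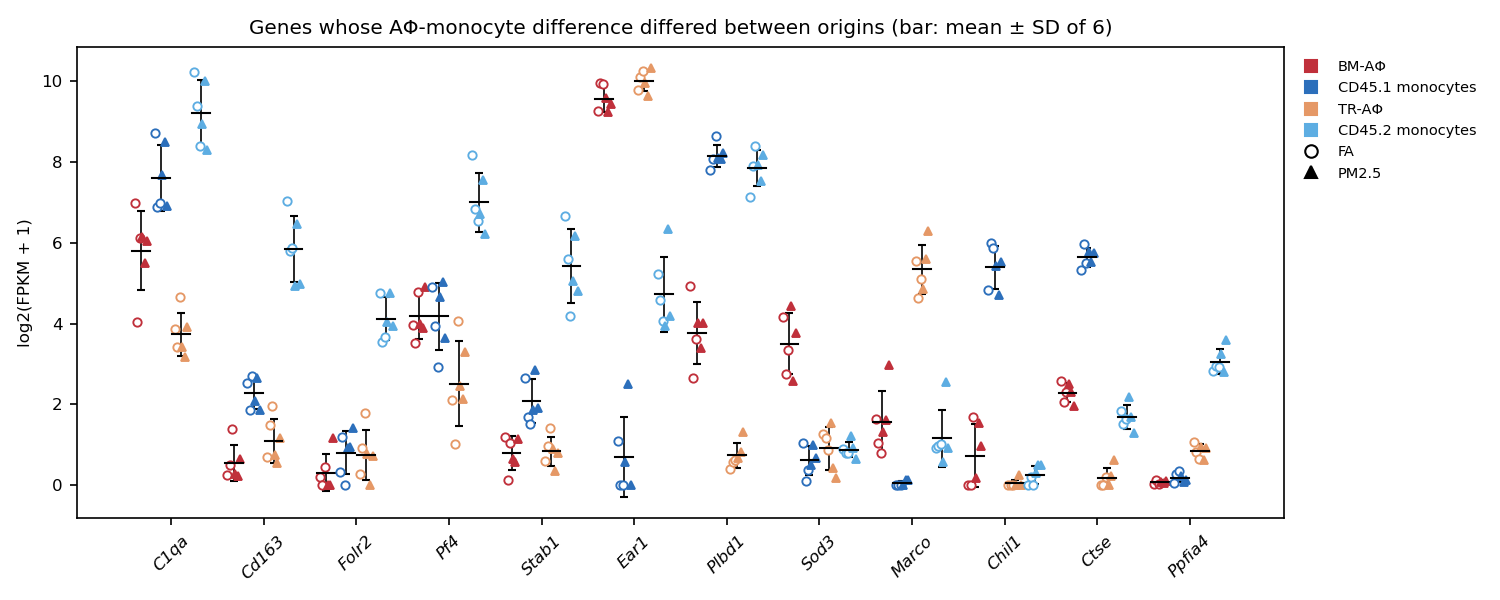
Level of 12 genes in each of 24 libraries of 32-weeks as log2(FPKM + 1), for BM-AΦ, CD45.1 monocytes, TR-AΦ and CD45.2 monocytes from left to right within each gene, with open circles for FA, filled triangles for PM2.5 and bars for the mean ± SD of 6 libraries. Cd163, Folr2, Pf4 and Stab1 are highest in CD45.2 monocytes, Marco in TR-AΦ, Sod3 in BM-AΦ, and Chil1 and Ctse in CD45.1 monocytes.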

How the data were processed

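Total RNA of cells sorted from lungs was sequenced from libraries of the SMART-Seq Stranded mRNA kit. The authors trimmed the reads, aligned them to mm10 with STAR and a GENCODE annotation, and deposited FPKM per gene estimated with Cufflinks, 1 column per library and none pooled. No read counts were analysed, so the depth behind a value is unknown and no counting interval is given. A value of exactly 0 can be a failed estimate and is described as listed at 0.

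The model, fitted to log2(FPKM + 1) by limma 3.58.1 (R 4.3.3), had cell type and exposure as additive terms and a variance trend over the mean. Fold changes are on this scale, which understates those of low genes. Genes entered from a mean of 1 FPKM, p were two-sided and adjusted by Benjamini-Hochberg over all genes, and the threshold was 0.05. The interaction, and the difference from the CD45.2 pair over 24 libraries, had 1 mean per group. Named genes were sort markers, the 10 largest differences per direction without overlap (predicted genes left out), up to 3 per direction and gene list of 41, up to 5 per direction of the other tests, and the 2 highest markers of each other cell type. Abcg1, Axl, C1qc, Car4, Cd163, Cd74, Folr2, Igf1, Irf5, Lpl, Lyve1, Marco, Nr4a1, Plbd1, S100a8, Scgb1a1, Sftpc, Siglec1, Sod3 and Stab1, and further list members named without a test of their own, were named after their values were seen. Some genes that the rule named are not reported here. The libraries and gene lists were chosen with earlier results of these data known. The procedure was tested on simulated data. Sequences are from RefSeq (GRCm38.p6), in which 7933 of the tested symbols had a promoter, and gene positions from GENCODE M21. Alternatives were another pseudocount, no filter, quantile normalization, rescaling, a model of 36 libraries, either exposure alone, a minimum fold change, a replicate block and leaving out libraries.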

Additional observations from a re-analysis of the deposited data

Results flagged for a closer look

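In each group of 6 libraries, a named gene was singled out where the gap between its highest or lowest library and the next, over the range of the group, exceeded Dixon's critical value of 0.625. Gaps and ranges were taken on log2(FPKM + 1). Of 324 groups examined (162 genes, both cell types) 20 did so, and chance alone is expected to single out about 1 in 20. That rate holds for independent normal values. Genes of the same library are not independent, and Acaa1b was listed at 0 in all but 1 monocyte library, so it is only a rough guide.

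Among the monocytes, 5 came from FA replicate 2, which was highest in Il1b (2725 FPKM, next 749), Slc16a3 (150.3), Olr1 (14.5), Aldoa (186) and Rplp0 (413). PM2.5 replicate 1 was highest in Atp6v0d2 (16.5 FPKM, next 3.10), Ctsk (8.78, next 2.22) and Krt79 (0.581), which are genes of AΦ. PM2.5 replicate 0 was highest in Acaa1b (0.153 FPKM) and FA replicate 1 lowest in Csf1r (126 FPKM). Among BM-AΦ, PM2.5 replicate 2 was highest in Calcrl (31.8 FPKM), Tlr3 (13.7) and Serpinb10 (0.723) and lowest in Cdkn1b (22.1) and Il1r2 (listed at 0). FA replicate 2 was highest in Mertk (94.1 FPKM), Thbs1 (14.0 FPKM, next 2.29) and Ifitm1 (2.15). FA replicate 1 was lowest in Cspg4 (1.39 FPKM), and PM2.5 replicate 0 was lowest in Tgfbr1 (92.6 FPKM).

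The cell type difference differed between FA and PM2.5 exposed mice in 4 genes by the limma interaction test, with log2 differences of 14.98 for Gm26917, 8.24 for Gm24251, 10.40 for Snord95 and 3.80 for Cdk8. All 4 had a group listed at 0, so these sizes depend on the pseudocount. Between CD45.1 and CD45.2, the 10 genes with the smallest p in both directions had log2 differences of -9.79 for Rn7s1, -7.56 for Gm26917, -4.46 for Chil1, -1.89 for Cdk8, -1.84 for Ctse, 2.11 for Ppfia4, 2.63 for Chp2, 2.67 for Cspg4, 2.74 for Siglech and 3.17 for Cd4. Rn7s1, a 7SL RNA gene with near-identical copies, was listed at 0 in all 6 BM-AΦ libraries. Siglech and Cd4, genes of plasmacytoid dendritic cells and other leukocytes, were high in CD45.2 monocytes alone, at means of 7.45 and 19.1 FPKM.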

How the results depend on the processing

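The 6676 calls between the cell types became 3810 with FA and 4295 with PM2.5 exposed mice alone, with fewer samples in each fit, 1334 when tested against a log2 fold change of 1, and 6154 to 6730 when any 1 library was left out. Interaction calls (4) were 2 in a model of 36 libraries, 7 without the filter, 27 without the libraries numbered 2, 0 without genes listed at 0 in a whole group, and 4 to 13 with 1 library left out, the most without FA monocyte replicate 0. Calls of the difference between origins (153) were 194 with a pseudocount of 0.1 and 109 to 212 with 1 library left out. They were 20 without the libraries numbered 2, a fit of 16 libraries, with 11 above, 9 below and 13 shared with the 153. The cause was not tested. Leaving out libraries numbered 2 and genes listed at 0 was chosen after seeing the data.

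Deviations of BM-AΦ and monocytes with the same replicate number correlated at -0.001 to 0.06, and the main models held no term for the number. Over the 4 groups of the test between origins, such correlations ran from -0.042 to 0.155, the highest in libraries numbered 2. Low correlations over all genes cannot show whether libraries of the same number came from the same mouse. As 1 example, Mrc1 in FA libraries 0, 1 and 2 was at 231, 263 and 295 FPKM in BM-AΦ. In TR-AΦ it was at 206, 265 and 281 FPKM. A replicate block gave 6953 calls between the cell types, 5 interactions and 268 differences between origins.

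Signs turned for values near 0. Cd74 was at 0.028 in FA exposed mice, 0.38 after quantile normalization and 0.0054 after rescaling to named genes, which also put Trem1 at 0.015 and Pf4 at 0.14. Pf4 was at 0.17 in FA exposed mice, 0.0033 with a pseudocount of 0.1 and -0.25 to 0.20 with 1 library left out, and Hbb-bs at -1.16 to 0.22. In PM2.5 exposed mice Cdk8 was at 0.096 and Scgb1a1 at -1.05, H2-Ab1 was at 0.0039 after quantile normalization, and the origin difference of Ctse was 0.0034 with a pseudocount of 0.1. List medians turned to -0.0047 for coagulation and 0.037 for epithelium without the filter, and to -0.18 for red cells in PM2.5 exposed mice. Over all settings of single genes, 3991 values kept their direction and side of the threshold, 126 lost the call and 15 gained one. Depth limits low genes most, and without read counts it could not be set against the differences.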
